A study of Homo sapiens with 6 samples.

Results

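Venetoclax alone was compared directly with cyclosporine A (CSA) alone in the leukemia cell line MV4-11 by RNA sequencing of gene counts. The comparison holds 4 of the 6 labelled libraries of the series, 2 for each single agent, chosen by their sample titles, and it covers all genes. MV4-11 is an established line from an acute myeloid leukemia, labelled as wild type in genotype, and the study describes it as a FLT3-ITD line, that is, one with an internal duplication in the receptor kinase gene FLT3. One group was cultured with 100 nM venetoclax and the other with 2.5 µM CSA, each for 24 h, and the 2 libraries of the combination group, which received both agents for 24 h, entered the fit for its share in the estimate of spread. Untreated cells are not analysed here, so a value higher in one group cannot be told apart from a value lower in the other relative to untreated cells. All libraries came from 1 cell line, and the labels do not say whether replicates were separate cultures, so the p-values measure only the spread between these libraries, which may be technical.

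Venetoclax is a BH3 mimetic: it occupies the groove of the survival protein BCL2 and releases the proteins that BCL2 holds, which can open the outer mitochondrial membrane and start apoptosis. CSA binds cyclophilins, and the complex inhibits the phosphatase calcineurin, which otherwise sends NFAT transcription factors to the nucleus. A group of genes that follows many stresses in leukemia cells, including stress on mitochondria, is the integrated stress response, in which kinases phosphorylate the initiation factor eIF2 alpha, translation of the transcription factor ATF4 goes up, and ATF4 drives genes for amino acid synthesis and uptake, tRNA charging and feedback control.

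The library labelled venetoclax replicate 2 stood apart from all others. Total counts were 26567900 and 28709646 with venetoclax and 27183108 and 30738957 with CSA, and between 13616 and 14252 genes had a count in the 6 libraries. Genes of the mitochondrial genome took 41.5% of the counts of venetoclax replicate 2, against 8.01% in replicate 1 and 7.41% and 9.71% with CSA. In the combination libraries the share was 8.06% and 15.2%. Between the venetoclax replicates, 11.1% of 9845 nuclear genes with a mean of at least 5 CPM (counts scaled to a common library size) differed 2-fold or more, against 1.33% between the CSA replicates. Across those genes, which all come from the same libraries, the difference of venetoclax replicate 2 from replicate 1 had a Spearman rho of -0.64 with the gene's GC content. Its median was 0.45 on the log2 scale in the tercile of genes lowest in GC and -0.50 in the highest tercile. The same difference between replicates had a weaker rho of the same sign with CSA (-0.31) and with the combination (-0.23). Counts of calls, list medians and fold changes are therefore given with and without this library. Without it the venetoclax group is 1 library, which is assumed to vary like the other groups. Of the markers of T and NK cells, 6 of 12 were at 0 in all libraries, CD3D, CD3E and CD3G among them. Of those of erythroid and megakaryocytic cells, 8 of 14 were at 0, globins and PF4 among them. Fewer were at 0 among markers of B cells (1 of 10) and of fibroblasts, epithelium and endothelium (2 of 13). By library size alone, summed CPM was 3.73 to 16.2 for T and NK cell markers and 5.54 to 17.7 for erythroid and megakaryocytic markers. It was 3.07 to 8.02 for B cell markers and 84.5 to 120.6 for those of fibroblasts, epithelium and endothelium. In the first 2 lists, NKG7 (5.36 to 14.3 TMM-scaled CPM), EPOR (6.05 to 10.3) and ITGA2B (1.86 to 4.92) had counts in every library. All 10 of 10 myelomonocytic leukemia markers had counts in every library, with a sum of 1548 to 2895 CPM.

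With venetoclax, genes of the ATF4 response stood lower than with CSA: of 64 tested members of 4 lists, 56 had a lower level, against 50.2% of all genes tested, with a median log2 fold change (venetoclax minus CSA) of -0.58 and, without venetoclax replicate 2, of -0.43 with 52 of 64 lower, against 51.5% of all genes. The glycine transporter SLC6A9, the peptide hormone gene ADM2, the mTOR brakes DDIT4 and SESN2 and the amino acid enzymes ASNS, CTH and ASS1 were among the lowest. Standing higher with venetoclax were the survival gene BCL2L2, the receptor gene LGR4, the nuclear transport receptor gene XPO4 and the adaptor gene MYD88. Genes of mitosis were also higher, with a median of 0.42, or 0.19 without venetoclax replicate 2.

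None of these differences passed the test set for the comparison. edgeR's quasi-likelihood test called 0 of 12690 genes (0%) at an adjusted p of 0.05 in the fit of all libraries, with 609 genes (4.8%) at an unadjusted p under 0.05 and a smallest adjusted p of 0.146. Without venetoclax replicate 2 it called 0 of 12940 genes, with 619 (4.78%) at an unadjusted p under 0.05 and a smallest adjusted p of 0.0745, while the same fit with the replicate number as a block called 16. limma-voom called 0 genes in either fit. DESeq2 called 63 genes (0.496%), 25 higher and 38 lower with venetoclax, and without venetoclax replicate 2 it called 107 (0.827%), 38 higher and 69 lower. Of these, 46 were called in both, 18 higher and 28 lower, which is 73% of the 63 and 43% of the 107. In 33 of the 107, venetoclax replicate 2 did not lie on the same side of the CSA libraries as replicate 1. In simulated libraries, with 200 genes changed in each run, the edgeR test recovered 0% of 2-fold and 94.5% of 4-fold changes with all libraries. It recovered 45.5% and 95.5% without venetoclax replicate 2. In the real libraries BCL2L2, with a log2 fold change of 3.04, was not called by edgeR with all libraries (adjusted p = 0.175). An adjusted p depends on how many genes differ, which was set in the simulations and is not known for the real libraries. No detection limit for these data is therefore drawn from the simulations. When venetoclax replicate 1 was left out instead, edgeR called 4385 genes, which rests on the library that stands apart.

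A difference of at least 2-fold in both fits with no overlap between the venetoclax and CSA libraries was seen for 78 genes higher (0.615% of those tested) and 158 lower (1.25%) with venetoclax. Of the 24 higher and 26 lower genes that also had a mean of at least 5 CPM, the 10 in each direction with the smallest unadjusted p are shown in the plot of leading genes, apart from 1 with no count in venetoclax. They were the genes of the naming rule, since no gene passed the adjusted threshold, and their lack of overlap between the agents was a condition of that rule, not a result. All 20 kept their direction in every alternative fit that was run. The rule largely fixes this too, as it asks for the same direction in both fits and the alternatives use the same libraries.

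**Figure D1:**
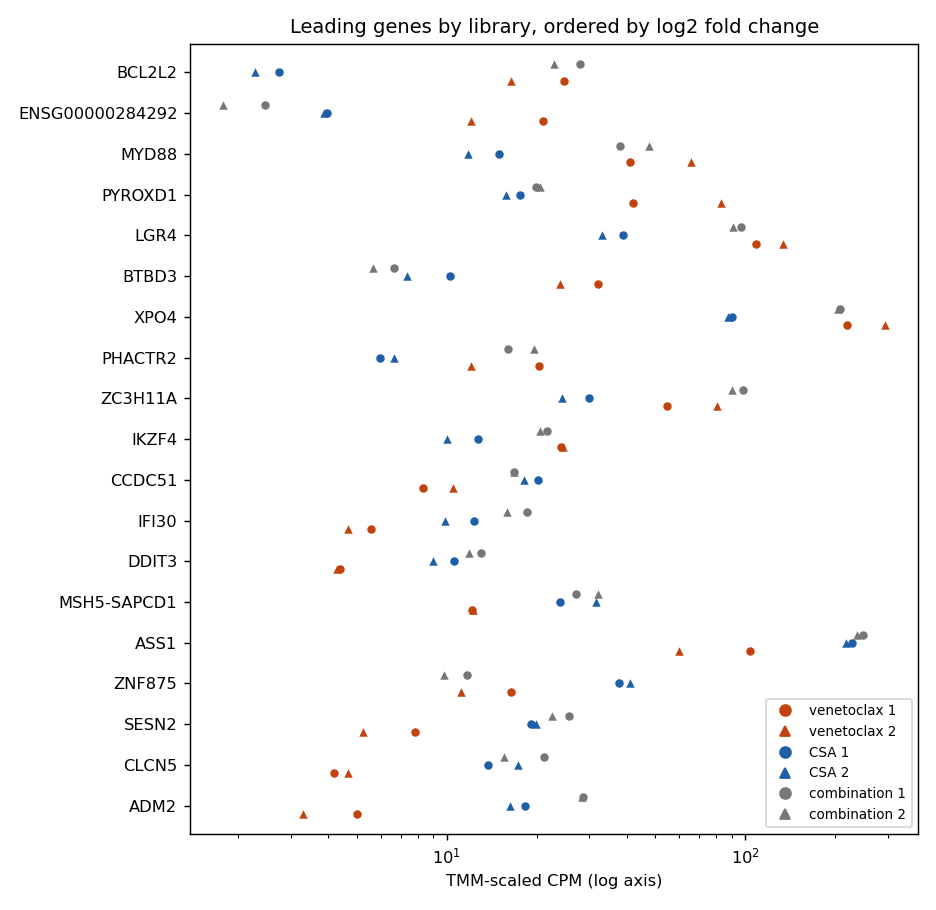
TMM-scaled CPM (log axis) of 19 of the 20 leading genes in each of the 6 libraries, 1 gene per row, with circles for replicate 1, triangles for replicate 2, red for venetoclax, blue for CSA and grey for the combination. As the choice of genes requires, both red symbols lie on the same side of both blue symbols in every row, from BCL2L2 (16.4 and 24.8 against 2.28 and 2.74) at the top to ADM2 (3.29 and 4.98 against 16.3 and 18.3) at the bottom.

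Among the amino acid transporters of the ATF4 response, 12 of 14 tested members were lower with venetoclax (median log2 fold change -0.71, or -0.46 without venetoclax replicate 2). SLC6A9 (ENSG00000196517, chr1:43991500-44031467 in GRCh38, minus strand), which carries glycine into cells, had 0.678 and 0.690 CPM with venetoclax and 5.75 and 5.70 CPM with CSA. The replicates of each agent were nearly alike, and the venetoclax level stood far below the CSA level. Its log2 fold change was -3.06 (SE 0.22, edgeR adjusted p = 0.146), the smallest adjusted p of all genes tested, and -3.08 (SE 0.23, adjusted p = 0.0745) without venetoclax replicate 2, while DESeq2 gave adjusted p-values of 6.9e-12 and 2.7e-08. The venetoclax values rest on few reads, 20 and 13 counts against 174 and 190.

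SLC7A11, the cystine and glutamate exchanger, had 20.03 and 25.8 CPM with venetoclax and 44.9 and 43.3 CPM with CSA. Its log2 fold change was -0.95 (SE 0.19) and, without venetoclax replicate 2, -1.15 (SE 0.13), and all 4 libraries separated by agent. SLC25A22, the mitochondrial glutamate carrier, had 20.7 and 18.6 CPM against 39.3 and 36.4 CPM. SLC1A4, a carrier of alanine, serine and cysteine, had 61.0 and 49.9 CPM against 95.2 and 90.8 CPM, likewise without overlap.

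The enzymes of asparagine, proline, cysteine and related synthesis formed the list with the lowest median of all those described. All 15 tested members had a negative log2 fold change, with a median of -0.84, and 14 of 15 without venetoclax replicate 2, with a median of -0.72. In 12 of the 15 both venetoclax libraries lay below both CSA libraries, against 19.9% of all genes tested. Without venetoclax replicate 2, 10 of the 15 were lower at an unadjusted p under 0.05 (edgeR), against 3.21% of all genes. ASNS (chr7:97852118-97872542), which makes asparagine, had 45.2 and 51.8 CPM with venetoclax and 89.9 and 95 CPM with CSA. Both venetoclax libraries were at about the same level and well under the CSA pair, with a log2 fold change of -0.93 (SE 0.16) and -1.04 (SE 0.13) without venetoclax replicate 2. CTH, which cleaves cystathionine to cysteine, had 2.20 and 3.77 CPM against 8.26 and 9.63 CPM. ASS1, which joins citrulline to aspartate, had 103 and 60.1 CPM against 227 and 217 CPM, so its replicates with venetoclax were further apart than those with CSA, yet did not overlap them. ADM2, listed here as an ATF4-responsive hormone gene, had 4.98 and 3.29 CPM against 18.3 and 16.3 CPM, a log2 fold change of -2.05 (SE 0.25, edgeR adjusted p = 0.332) and -1.80 (SE 0.17) without venetoclax replicate 2.

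Serine synthesis and folate one-carbon enzymes differed less: 12 of 14 were lower with a median of -0.32, but without venetoclax replicate 2 it was 10 of 15 with a median of -0.11. PSAT1, the aminotransferase of serine synthesis, had 142 and 134 CPM with venetoclax against 270 and 265 CPM with CSA, and its log2 fold change was -0.96 (SE 0.15) and -0.92 (SE 0.13) without venetoclax replicate 2. PHGDH, which opens the same pathway, had 104 and 47.8 CPM against 190 and 161 CPM. ALDH1L2, a mitochondrial folate enzyme, had 66.1 and 99.1 CPM against 130 and 145 CPM, and MTHFD2, its neighbour in the pathway, 202 and 190 CPM against 284 and 274 CPM. In each of these 4 genes the agents did not overlap. Over the list, 6 of 14 tested members were lower and 2 were higher with venetoclax without overlap, against 19.9% and 20.8% of all genes tested.

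Of 21 transcription factors and feedback regulators, 17 were lower with venetoclax in either fit, with medians of -0.51 and -0.45, the first of which was -0.30 after removal of each library's GC trend. ATF4 itself had 353 and 271 CPM with venetoclax and 480 and 483 CPM with CSA, a log2 fold change of -0.63 (SE 0.18), or -0.45 (SE 0.10) without venetoclax replicate 2. DDIT3, the factor CHOP, had 4.37 and 4.30 CPM against 10.6 and 9.0 CPM, with a log2 fold change of -1.17 in both fits. The agents did not overlap for either factor. DDIT4, which restrains mTOR complex 1, had 7.05 and 2.65 CPM against 27.4 and 19.96 CPM, and SESN2, which senses leucine and restrains the same complex, 7.79 and 5.25 CPM against 19.1 and 19.9 CPM. CHAC1, which degrades glutathione, had 3.19 and 1.75 CPM against 9.55 and 8.64 CPM. TRIB3, an inhibitor of ATF4, had 26.7 and 15 CPM against 95.5 and 50.4 CPM, so the CSA replicates were nearly 2-fold apart. ATF3, another factor of the response, had 1.05 and 1.01 CPM against 3.50 and 3.12 CPM.

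Over the 4 lists together, 42 of the 64 tested members were lower without overlap, against 19.9% of all genes tested, and 30 were lower at an unadjusted p under 0.05 (edgeR), against 2.46% of all genes. DESeq2 called 15 of them lower with all libraries, against 0.299% of all genes, and 17 without venetoclax replicate 2, against 0.533%, and 12 of the 28 lower genes called by DESeq2 in both fits belong to these lists. edgeR called no member with all libraries or without venetoclax replicate 2, and DESeq2 called none higher with all libraries. The 64 members stand among 12690 genes tested with all libraries, and their lists were chosen with earlier results of these data known. The median of the 4 lists without venetoclax replicate 1 was -0.74. eIF2 alpha kinases and their activators had medians of 0.08 and -0.02, with 10 of 13 members higher in the fit of all libraries and 6 of 13 without venetoclax replicate 2.

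**Figure D2:**
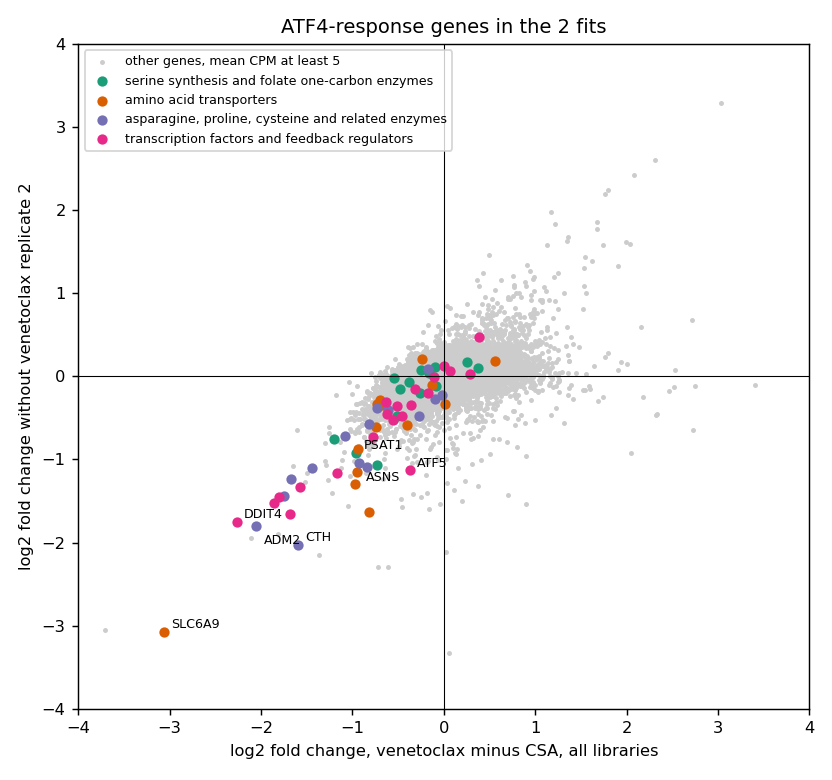
Log2 fold change (venetoclax minus CSA) of each gene in the fit of all libraries on the x axis and without venetoclax replicate 2 on the y axis, for genes with a mean of at least 5 CPM (grey) and for all tested members of the 4 ATF4-response lists (coloured). The coloured points lie mostly at the lower left, with SLC6A9 at -3.06 and -3.08 furthest from the origin among them. ATF5 differed between the fits, at -0.37 and -1.13. Genes beyond 4 in size in either fit, ATP6V1G2-DDX39B and MT-ATP6 among them, lie outside the axes.

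Cytosolic tRNA synthetases, which charge tRNAs and in part respond to ATF4, were lower in 14 of 20 with a median of -0.20, and in 16 of 20 with a median of -0.19 without venetoclax replicate 2. WARS1, for tryptophan, had 118 and 165 CPM against 282 and 221 CPM, a log2 fold change of -0.83 (SE 0.22) and -1.10 (SE 0.18). AARS1, for alanine, had 228 and 151 CPM against 322 and 299 CPM, and MARS1, for methionine, 134 and 84.1 CPM against 186 and 181 CPM. The agents did not overlap in any of these 3 genes. Over the list, 10 of 20 members were lower and 1 was higher with venetoclax without overlap, against 19.9% and 20.8% of all genes tested. ATF4 is known to bind composite elements whose core reads TGATGNAA, and RefSeq promoters (GRCh38.p14, 250 bases before to 50 after the start site) of members of the ATF4 and tRNA synthetase lists were searched for it on both strands. Promoters were found for 64 of the 83 tested members, and 17 of the 64 (26.6%) held the letters, against 177 of 10135 tested genes with a promoter (1.75%). The 9-letter form TGATGNAAT matched 3 of the 64 (4.69%) against 41 of 10135 (0.405%), and the 8-letter form, which overlaps it, was added after the longer one had matched few. Windows of 5 of the genes named above are shown because the list and the letters meet in them, in the direction of the gene, with the match in capitals, which reads TTNCATCA where the element lies on the opposite strand:
ASNS (chr7:97872439-97872506, minus strand): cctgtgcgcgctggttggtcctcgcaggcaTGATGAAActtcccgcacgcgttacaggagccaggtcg
ATF3 (chr1:212565186-212565253, plus strand): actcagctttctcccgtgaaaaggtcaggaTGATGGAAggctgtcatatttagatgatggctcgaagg
CHAC1 (chr15:40953232-40953299, plus strand): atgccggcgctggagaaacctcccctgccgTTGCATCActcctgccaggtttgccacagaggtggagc
AARS1 (chr16:70289656-70289723, minus strand): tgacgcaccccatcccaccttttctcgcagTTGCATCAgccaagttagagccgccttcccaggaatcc
MARS1 (chr12:57488034-57488101, plus strand): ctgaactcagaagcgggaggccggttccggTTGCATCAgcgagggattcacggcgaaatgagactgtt
A match is a description of these windows. No match was found for SLC6A9, ADM2, DDIT4, SESN2 and DDIT3, which says only that no searched window of theirs held these letters, as not every member had a window.

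BCL2L2 (ENSG00000129473, chr14:23298790-23311759, plus strand), which encodes the BCL2 relative BCL-w, had the highest leading fold change. Its level was 24.8 and 16.4 CPM with venetoclax and 2.74 and 2.28 CPM with CSA. The groups stood far apart, and the log2 fold change was 3.04 (SE 0.29, edgeR adjusted p = 0.175) and, without venetoclax replicate 2, 3.30 (SE 0.21, adjusted p = 0.0745). DESeq2 gave adjusted p-values of 7.8e-16 and 1.4e-23. BCL2L2 shares 19.4% of its exon bases with the read-through gene BCL2L2-PABPN1, so reads can be split between them. The summed level of both was 28.5 and 30.4 CPM with venetoclax and 7.21 and 6.93 CPM with CSA, a log2 ratio of 2.06, and of 2.01 without venetoclax replicate 2, so the difference remained in the sum though smaller.

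LGR4 (chr11:27365961-27472775), a receptor for R-spondins that strengthens Wnt signalling, had 108 and 133 CPM with venetoclax and 38.9 and 33.1 CPM with CSA, a log2 fold change of 1.75 (SE 0.18, edgeR adjusted p = 0.175) and 1.58 (SE 0.14) without venetoclax replicate 2. XPO4, which moves proteins through nuclear pores, had 220 and 295 CPM against 90.4 and 87.2 CPM, a log2 fold change of 1.53 (SE 0.19) and 1.30 (SE 0.10). MYD88, the adaptor of Toll-like and interleukin-1 receptors, had 41.0 and 65.7 CPM against 14.9 and 11.7 CPM. In all 3 genes the venetoclax libraries lay above the CSA libraries by more than the replicates of either agent lay apart. PYROXD1, a redox enzyme gene, had 42.1 and 82.7 CPM against 17.6 and 15.8 CPM, with replicates of venetoclax that differed nearly 2-fold. BTBD3 had 32.1 and 24.0 CPM against 10.2 and 7.35 CPM, and IKZF4, an Ikaros-family zinc finger gene, 24.1 and 24.6 CPM against 12.8 and 9.99 CPM. PHACTR2, a regulator of actin and protein phosphatase, had 20.4 and 12.1 CPM against 5.98 and 6.66 CPM.

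Several leading genes are read-through or overlapping genes whose fold change as listed did not hold for the locus. ATP6V1G2-DDX39B, all of whose exon bases lie in other genes, had 0 counts in both venetoclax libraries and 783 and 1144 counts with CSA, 25.9 and 34.3 CPM. Against a floor of 3 counts per library this is at least 189-fold lower with venetoclax, but the sum with DDX39B and ATP6V1G2 was 197 and 176 CPM with venetoclax and 185 and 181 CPM with CSA, so the locus as a whole overlapped between the agents. ENSG00000284292 had 21 and 12 CPM against 3.97 and 3.87 CPM, whereas its sum with ARPC1B and ARPC1A gave a log2 ratio of -0.46, the opposite direction, and -0.18 without venetoclax replicate 2. ZC3H11A had 54.7 and 80.5 CPM against 30.01 and 24.2 CPM, but its sum with ZBED6, with which it shares 93.6% of its exon bases, gave 0.22, and 0.28 without venetoclax replicate 2. MSH5-SAPCD1 had 12.2 and 12.2 CPM against 23.9 and 31.5 CPM, with -0.23 in the sum and -0.27 without venetoclax replicate 2. For IFI30, a lysosomal thiol reductase gene, the values were 5.56 and 4.67 CPM against 12.4 and 9.84 CPM, with -0.16 in the sum, which turned to 0.46 without venetoclax replicate 2. These 5 genes are uncertain, as reads can be split between overlapping genes, and whether they were was not tested. Of the 46 genes called by DESeq2 in both fits, 10 share exon bases with another gene on the same strand. The share of all genes tested that do so was not computed, so whether this count is above that share is not known. The sums were added after these values had been seen.

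**Figure D3:**
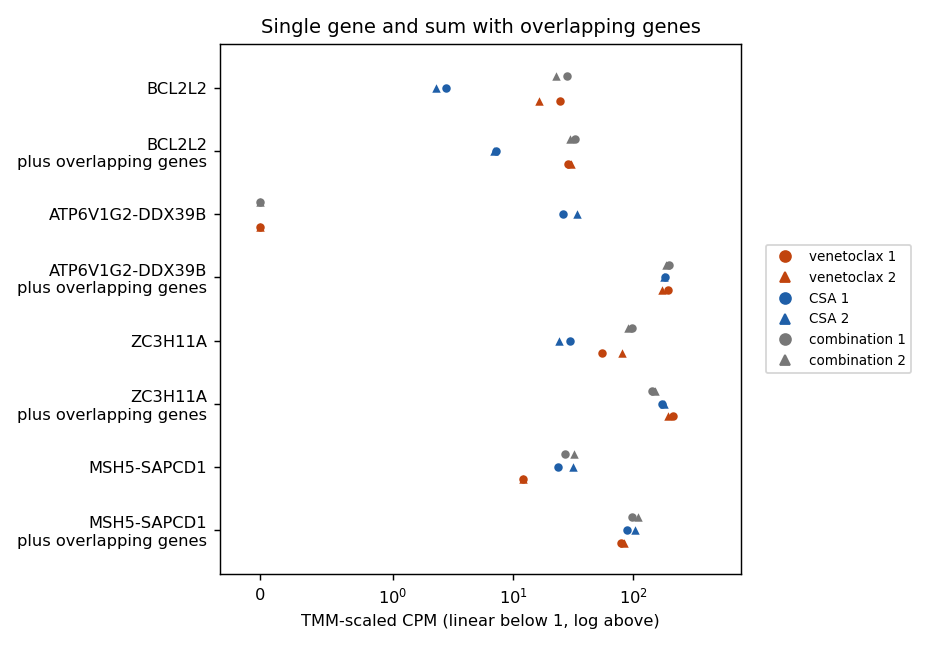
TMM-scaled CPM (linear below 1, log above) of 4 leading genes and of each with the genes that overlap it on the same strand, by library, with symbols as in the plot of leading genes. ATP6V1G2-DDX39B at 0 with venetoclax and 25.9 and 34.3 with CSA becomes 197, 176, 185 and 181 in the sum, whereas BCL2L2 keeps its separation in the sum (28.5 and 30.4 against 7.21 and 6.93).

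Other leading genes lower with venetoclax overlap no other gene. CLCN5, an endosomal chloride and proton exchanger, had 4.20 and 4.67 CPM with venetoclax and 13.7 and 17.4 CPM with CSA, a log2 fold change of -1.81 (SE 0.25) and -1.89 (SE 0.29) without venetoclax replicate 2. ZNF875, a zinc finger gene, had 16.4 and 11.2 CPM against 37.9 and 41.1 CPM, and CCDC51, which encodes a mitochondrial potassium channel, 8.34 and 10.4 CPM against 20.1 and 18.1 CPM. DESeq2 called all 3 in both fits. NLRP12, a sensor that limits inflammatory signalling, was at 1.97 and 1.17 CPM against 7.17 and 7.53 CPM, with a log2 fold change of -2.21 (SE 0.29) and -1.91 (SE 0.20) without venetoclax replicate 2. MAFF, a small MAF factor, was at 1.39 and 2.60 CPM against 5.25 and 5.61 CPM. NFE2L2, the gene of the antioxidant factor NRF2, stood the other way, at 100 and 76.5 CPM with venetoclax and 45.2 and 54.7 CPM with CSA, a log2 fold change of 0.82 (SE 0.20) and 1.00 (SE 0.15) without venetoclax replicate 2. The list of NRF2 targets, which includes NFE2L2 and SLC7A11, had a median of -0.25, or -0.06 without venetoclax replicate 2, with 18 and 15 of its 22 members lower.

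Genes of mitosis were higher with venetoclax in 28 of 33 members, against 49.8% of all genes tested, and in 33 of 33 without venetoclax replicate 2, against 48.4%. In 22 of them both venetoclax libraries lay above both CSA libraries, against 20.8% of all genes, and 9 were higher at an unadjusted p under 0.05 (edgeR), against 2.34%. Without venetoclax replicate 2, replicate 1 lay above both CSA libraries in 27 of them, against 35% of all genes. No member was called by edgeR or DESeq2 with all libraries or without venetoclax replicate 2. MKI67 (chr10:128096659-128126385), the proliferation antigen Ki-67, had 1012 and 2041 CPM with venetoclax and 692 and 795 CPM with CSA, a log2 fold change of 1.04 (SE 0.35) that was 0.44 (SE 0.18) without venetoclax replicate 2. ANLN, a scaffold of the contractile ring, had 138 and 270 CPM against 103 and 107 CPM. For both genes the difference between the venetoclax replicates was larger than that between replicate 1 and CSA, and both agents remained separate. CDK1, the kinase that starts mitosis, was steadier, with 111 and 115 CPM against 80.8 and 71.1 CPM and a log2 fold change of 0.57 (SE 0.15) and 0.54 (SE 0.13). Genes of DNA replication had a median of 0.03 with 27 of 46 members higher, and of 0.13 with 39 of 46 without venetoclax replicate 2. MCM10, which helps load the replication machinery, had 118 and 142 CPM against 88.3 and 97.4 CPM.

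Mitotic genes are known to be controlled through the cell cycle homology region, TTTGAA. Of 27 mitosis members with a promoter, 18 (66.7%) held it on either strand, against 1015 of 10135 genes (10%). MKI67, also named above, held it at -47 and -29 from the start site and is not shown. ANLN held a further match, TTCAAA at -26, which stands in lower case directly before the marked one. The windows of ANLN and CDK1 are shown as genes named above, with 1 match each in capitals:
ANLN (chr7:36389812-36389877, plus strand): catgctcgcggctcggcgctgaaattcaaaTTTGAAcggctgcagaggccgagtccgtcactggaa
CDK1 (chr10:60778140-60778205, plus strand): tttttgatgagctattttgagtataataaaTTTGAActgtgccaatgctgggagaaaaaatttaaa
The other searches on these lists were CCAAT in 20 of 27 mitosis and 15 of 18 cholesterol promoters (36.7% of all), TTTGGCGC in 7 of 38 replication promoters (1.12% of all), TGACNNNGC in 4 of 15 promoters of NRF2 targets (15.2% of all) and TCACNCCAC in 1 of 18 cholesterol and 0 of 11 fatty acid promoters (1.09% of all).

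Of the other genes near the action of venetoclax, the survival genes BCL2, MCL1 and BCL2L1 had log2 fold changes of 0.20 or less in size. BCL2, the target of venetoclax, had 74.3 and 79.6 CPM with venetoclax and 68.1 and 65.8 CPM with CSA, a log2 fold change of 0.20 (SE 0.15) and 0.14 (SE 0.13) without venetoclax replicate 2. MCL1, the survival protein that often carries resistance to venetoclax, had 184 and 202 CPM against 167 and 170 CPM, a log2 fold change of 0.20 (SE 0.14) and 0.12 (SE 0.10). For both genes the venetoclax libraries lay just above the CSA libraries. BCL2L1, for BCL-xL, had a log2 fold change of -0.08 (SE 0.16) and -0.01 (SE 0.13), and BAX, a pore-forming effector, one of -0.21 (SE 0.18) and -0.06 (SE 0.13). Effectors and BH3-only genes had a median of -0.27, or -0.03 without venetoclax replicate 2. BCL2L11, for the BH3-only protein BIM, had 13.8 and 18.7 CPM against 10.1 and 6.63 CPM, with a log2 fold change of 0.95 (SE 0.52) and 0.71 (SE 0.69) without venetoclax replicate 2. APAF1, the scaffold of the apoptosome, had 75.1 and 56.9 CPM against 42.5 and 46.1 CPM, a log2 fold change of 0.58 (SE 0.21) and 0.76 (SE 0.16).

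**Figure D4:**
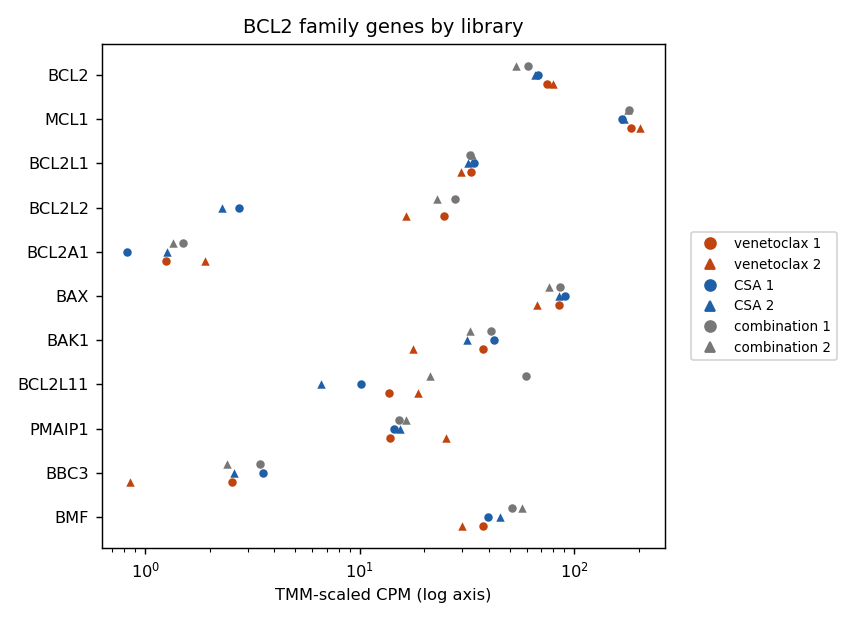
TMM-scaled CPM (log axis) of 11 BCL2-family genes in each library, with symbols as in the plot of leading genes. BCL2L2 is the gene whose venetoclax symbols (16.4 and 24.8) stand furthest from its CSA symbols (2.28 and 2.74), and BAK1 and BBC3 show venetoclax replicate 2 (17.7 and 0.849) below all other libraries.

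Genes of calcineurin, NFAT factors and their inhibitors had a median of 0.30, with 10 of 13 higher, and of 0.16, with 11 of 13 higher, without venetoclax replicate 2. PPP3CA, the catalytic subunit of calcineurin, had 53 and 85.3 CPM with venetoclax and 36.4 and 58.3 CPM with CSA, which overlap, and RCAN1, an inhibitor that NFAT induces in many cells, had 48.1 and 36.0 CPM against 43.5 and 43.6 CPM, which overlap too. Genes induced through NFAT in blood cells passed the filter on low counts in 8 of 16 cases, with medians of 0.11 and -0.13. PPIA, the cyclophilin that binds most CSA, had 1123 and 774 CPM against 1189 and 1124 CPM, a log2 fold change of -0.29 (SE 0.22) and -0.05 (SE 0.12). The efflux pump gene ABCB1, whose product CSA inhibits, had 0 counts in all 6 libraries. In the PI3K, AKT and mTOR pathway 19 of 34 genes were higher, with a median of 0.16, and 24 of 34, with a median of 0.05, without venetoclax replicate 2. PIK3R1, a regulatory subunit, had 77.6 and 113 CPM against 61.8 and 62.1 CPM, and PIK3CG, a catalytic subunit, 53.5 and 62.7 CPM against 41.8 and 42.3 CPM. MLST8, a subunit of both mTOR complexes, stood lower, at 68.2 and 50.1 CPM against 96.5 and 92.1 CPM, a log2 fold change of -0.67 (SE 0.19) and -0.47 (SE 0.11). MTOR, AKT1, PIK3CA and FLT3 overlapped between the agents. p53 targets had medians of -0.20 and -0.04.

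Groups whose difference moved with venetoclax replicate 2 are listed here with the values of that library, and the part that its mitochondrial share and its trend with GC content play in them was not tested. Cytosolic ribosomal proteins were lower in 40 of 42, with a median of -0.38, and in 41 of 42 with a median of -0.14 without it. Their summed level was 38936 and 28221 CPM with venetoclax and 44594 and 41715 CPM with CSA, so replicate 2 was the lowest but replicate 1 was below CSA as well. Nuclear genes of the respiratory chain were lower in 38 of 46, with a median of -0.21, but in 27 of 46 with -0.03 without replicate 2. The 13 genes of the mitochondrial genome had a median of 2.33 with it and -0.17 without it. Their summed level in venetoclax replicate 1, 72157 CPM, lay between those of the CSA libraries, 66602 and 89576 CPM, and that in replicate 2 was 632610 CPM. The KMT2A-fusion programme, with HOX genes and MYB, had a median of 0.28 that was -0.03 without replicate 2. MYB, for example, had 445 and 1147 CPM against 408 and 464 CPM, so only replicate 2 stood apart. Cyclophilin genes had medians of 0.27 and -0.01, and PPIG, a nuclear cyclophilin, had 73 and 527 CPM against 46.8 and 44.1 CPM.

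Heat shock proteins were higher in 18 of 20, with a median of 0.13, and in 17 of 20, with 0.12, and only scaling by library size alone, which moves the median of all genes to -0.31, turned the first of these to -0.20. HSPH1, a cochaperone of HSP70, had 516 and 678 CPM against 402 and 440 CPM. Interferon-stimulated genes were lower in 26 of 36, with a median of -0.29, and in 28 of 37, with -0.14. STAT2, a subunit of the interferon-activated factor, had 32.6 and 22.8 CPM against 42.9 and 44.0 CPM, and the agents did not overlap. HLA class II genes had medians of -0.27 and -0.17. The list of cholesterol synthesis and uptake genes had medians of -0.10 and -0.06. CPT1A, which carries fatty acids into beta-oxidation, had 170 and 151 CPM against 222 and 222 CPM. Among Toll-like receptors, TLR4 had 24.3 and 28.1 CPM against 17.8 and 18.2 CPM, while the list with inflammasome sensors had medians of 0.06 and, without venetoclax replicate 2, -0.01. The chemokine gene CCL2 had 13.5 and 10.2 CPM against 8.03 and 7.56 CPM. edgeR called none of the genes named here with all libraries or without venetoclax replicate 2.

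**Figure D5:**
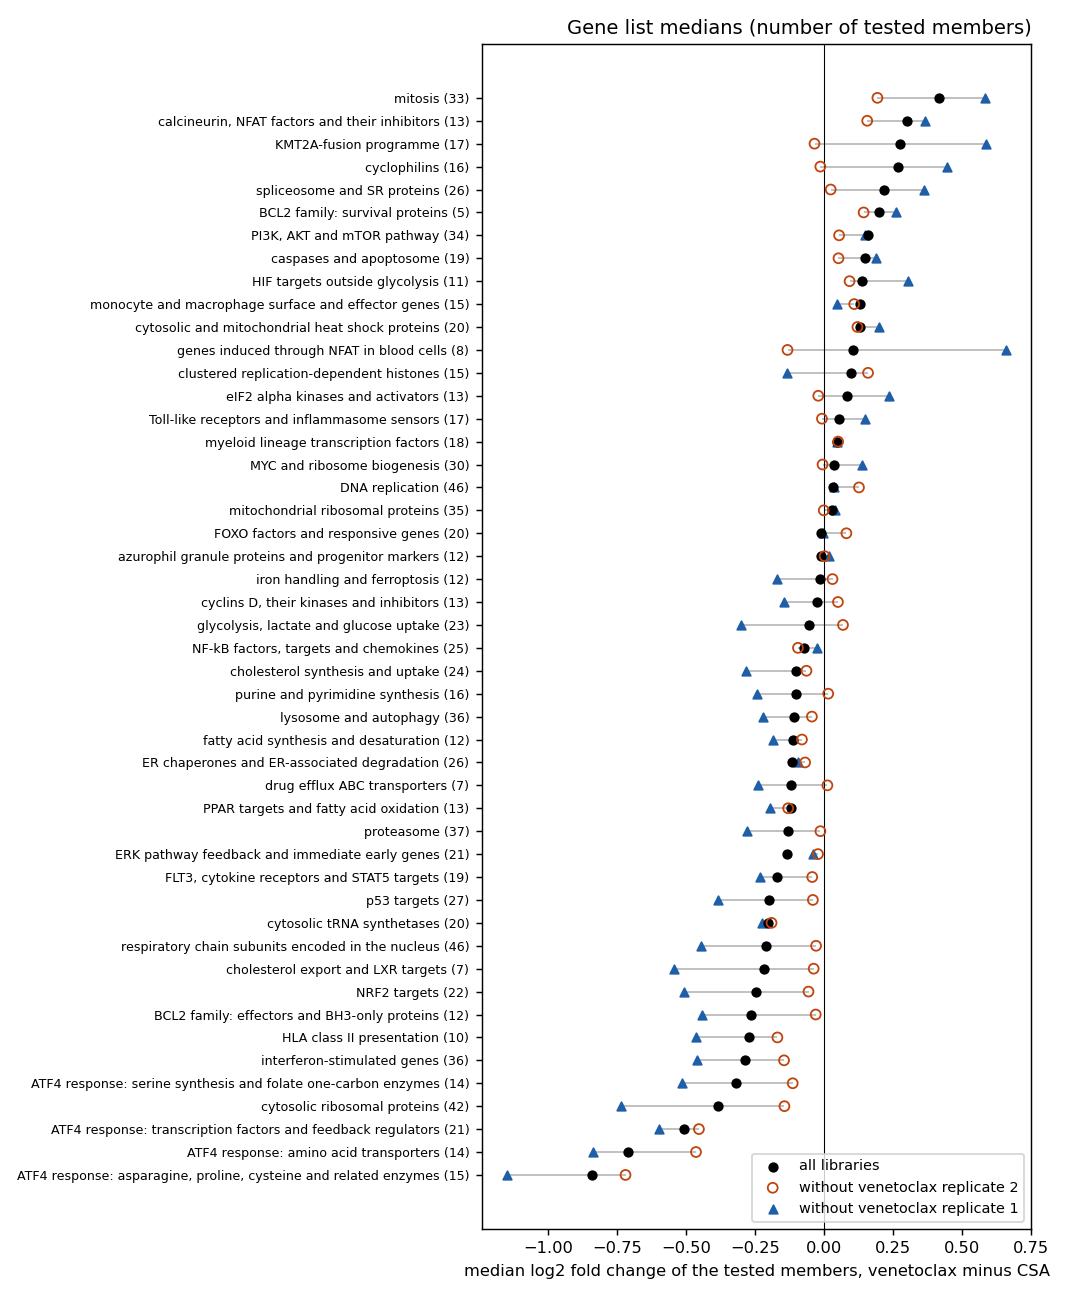
Median log2 fold change (venetoclax minus CSA) of the tested members of each gene list, with the number tested in brackets, for all libraries (black), without venetoclax replicate 2 (open red) and without venetoclax replicate 1 (blue triangles), the last a fit whose only venetoclax library is the one that stands apart. The genes of the mitochondrial genome (2.33, -0.17 and 3.22) lie outside the axis and are left out. The ATF4 enzymes are at -0.84, -0.72 and -1.15 and mitosis at 0.42, 0.19 and 0.59.

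Set beside the libraries with both agents, the combination mean lay nearer to CSA in 121 of the 158 genes that were lower with venetoclax by 2-fold or more in both fits and nearer to venetoclax in 37. Of the 78 higher genes it lay nearer to CSA in 46 and nearer to venetoclax in 32, but with a mean of at least 5 CPM it lay nearer to CSA in 11 and nearer to venetoclax in 13 of 24. Of the 26 lower genes at that level it lay nearer to CSA in 20. Both combination libraries lay beyond both CSA libraries, away from venetoclax, in 40 of the 158 lower and 3 of the 78 higher genes. At a mean of at least 5 CPM this held for 8 of the 26 and 2 of the 24. All these genes were chosen by their venetoclax and CSA values. The same shares over all genes tested were not computed, so these counts only describe the chosen genes. SLC6A9, at 8.46 and 8.51 CPM with both agents, was above CSA, BCL2L2, at 27.9 and 22.9 CPM, was near venetoclax, and BTBD3, at 6.66 and 5.67 CPM, was below both CSA libraries. ZNF875, at 11.7 and 9.81 CPM with both agents, was near venetoclax among the lower genes. LGR4 and XPO4, at 96.5 and 91.1 CPM and at 207 and 205 CPM, were near venetoclax as well.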

How the data were processed

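The deposited table holds counts per gene, and the submitters' processing notes name STAR, RSEM, DESeq2 and hg38 with no role or version. Neither strand use nor mate counting is stated there. Of 20263 genes, 20148 had a symbol and 4656 had no count. 2 columns matched no labelled sample and were not used. Counts of 1 to 20 were even in 64.8 to 66.7% of cases against 49.0 to 51.0% of those of 100 or more.

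Counts as deposited were filtered (filterByExpr), scaled by TMM and tested with edgeR 4.0.16 (R 4.3.3; robust quasi-likelihood, two-sided, Benjamini-Hochberg over all genes, threshold 0.05) by group, with and without venetoclax replicate 2. CPM is TMM-scaled and SE is the log2 fold change over the root of F. The script was tested on simulated data. Alternatives were DESeq2 1.42.0, limma 3.58.1, other scalings and filters, a replicate block and leaving out libraries. The labels give replicate numbers only. Gene positions and exon overlaps came from GENCODE 29 and promoters from RefSeq.

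Members, lists and rules were chosen with earlier results of these data known. Named genes are up to 10 per direction with the smallest p among those of at least 5 CPM, no overlap and a 2-fold difference in both fits, up to 4 per list by smallest p, and a set of drug-target, apoptosis and stress genes. DDX39B, ATP6V1G2, ZBED6, ARPC1A, ARPC1B, BCL2L2-PABPN1 and ATF5 were named after their values were seen.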

Additional observations from a re-analysis of the deposited data

How the results depend on the processing

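edgeR called 0 genes with all libraries under the other scalings, the filter at 1 CPM, the 4 compared libraries alone, a replicate block, the GC correction, removal of mitochondrial genes and a 1.5-fold minimum, with 183 to 1407 genes at an unadjusted p under 0.05, and limma-voom called 0 with or without weights. Without a filter on low counts edgeR called 2, and DESeq2 called 63. Leaving out 1 library at a time gave 0 to 4385 calls, the highest without venetoclax replicate 1. Without venetoclax replicate 2, DESeq2 called 107 genes, and leaving out 1 more library gave 0 to 55 calls, 33 without combination replicate 1 and 55 without combination replicate 2. The fit with the replicate number as a block called 16 genes there, 6 higher and 10 lower. The labels do not say what a number marks, and the deviations of same-numbered libraries correlated at 0.19 for venetoclax with CSA, 0.25 for venetoclax with the combination and 0.16 for CSA with the combination. The cause of these shifts was not tested. Of the 4385 genes called without venetoclax replicate 1, 4373 had the sign they had with all libraries. The self-test made 23 and 36 false calls at 4-fold and 0 and 28 at 2-fold, with all libraries and without venetoclax replicate 2. Each run changed 200 genes, so wherever calls were made, the false ones exceeded the share of 0.05 that the threshold sets. The GC correction of the second fit was chosen after seeing the data. In the fit of all libraries, medians after the GC correction were 0.27 for mitosis, -0.41 for ribosomal proteins, -0.31 for serine and one-carbon enzymes, -0.54 for transporters, -0.68 for the other ATF4 enzymes, -0.30 for ATF4 regulators, -0.18 for interferon-stimulated genes, -0.08 for NRF2 targets, -0.02 for p53 targets, -0.07 for BCL2 effectors and BH3-only genes, 0.08 for cyclophilins and 0.07 for the PI3K pathway. 2 libraries per agent limit the precision.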
